A study of Mus musculus with 23 samples.

Results

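Respiratory complex I and the mitochondrially encoded genes were examined in 23 subcutaneous MC38 tumors profiled by poly(A) RNA sequencing. Members were all genes whose symbol is Nduf followed by a, b, c, s or v and a digit, together with the 13 protein-coding genes of the mitochondrial genome. This gave 39 nuclear and 13 mitochondrial genes, 52 of the 26869 genes in the table. The rule matched 54 genes of the annotation, and the other two, Ndufb1-ps and Ndufs6b, were not analysed here. MC38 is a colon carcinoma cell line of C57BL/6 origin, and its cells were implanted in female hosts aged 8 to 12 weeks. The question was whether transcripts of the respiratory chain differed between host lines, between responder (R) and non-responder (NR) lines, or after treatment.

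Every host was an F1 animal that joined C57BL/6J with a Collaborative Cross (CC) line, an inbred line descended from several founder strains. The R lines were C57BL/6J x CC001/UncJ (CC001F1), C57BL/6J x CC002/UncJ (CC002F1) and C57BL/6J x CC075/UncJ (CC075F1). The NR lines were C57BL/6J x CC036/UncJ (CC036F1), C57BL/6J x CC079/TauUncJ (CC079F1) and C57BL/6J x CC080/TauUncJ (CC080F1), and the class of each line came from the study's text rather than from the labels. Tumors of 75 to 110 mm3 were given 200 µg of isotype control antibody (2A3) or of an antibody against PD-1 (aPD1, 29F.1A12) and were taken 48 h later. The 12 groups of line and antibody held 2 tumors each, save for 1 tumor of CC080F1 hosts given aPD1. The tumors carried one implanted cell line and differed in host, and per the study the CC parent was the mother. Since mitochondrial DNA passes through the mother, host cells would then carry the mitochondrial genome of their CC line, while tumor cells carried that of MC38. The labels write C57BL/6J first in each cross and do not say which parent was the mother, and mitochondrial variants were not examined. The table gives a single value per gene, in which the RNA of host and tumor cells is summed.

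Library totals were 14494015 to 71868253 expected counts (median 42327589), with 6 libraries under 30000000, 2 from R and 4 from NR lines. Of 4 MC38 and epithelial markers, Shisal2b ran from 12.6 to 31.3 CPM (counts scaled to a fixed library total), whereas Epcam stayed at or under 1.79 CPM and Krt18 was at 0 in 7 tumors. Summed macrophage markers ran from 1225 to 3576 CPM in R and from 1102 to 2347 CPM in NR tumors, and summed T and natural killer cell markers from 16.9 to 83.1 CPM in R and from 4.41 to 35.0 CPM in NR tumors. In 4 tumors skeletal muscle genes summed to more than 100 CPM. In bulk tumor RNA, fewer cells of a type and less RNA per cell cannot be told apart.

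Complex I takes electrons from NADH, passes them along iron-sulfur clusters to ubiquinone and pumps protons across the inner mitochondrial membrane. Its catalytic core is shared between genomes: the NADH and quinone modules are encoded in the nucleus (by Ndufv1, Ndufv2, Ndufs1, Ndufs3, Ndufs7 and Ndufs8 among others), and the proton-pumping membrane arm holds the subunits encoded by mt-Nd1 to mt-Nd6 and mt-Nd4l. The other nuclear members are mostly accessory subunits. The remaining mitochondrial genes encode cytochrome b of complex III (mt-Cytb), the core of cytochrome c oxidase, which is complex IV (mt-Co1, mt-Co2, mt-Co3), and ATP synthase subunits (mt-Atp6, mt-Atp8). Mitochondrial genes are transcribed together as long precursors that are cut into single messages, while each nuclear gene has its own promoter.

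For the mitochondrial genes, the value of a gene depended on how reads were shared with nuclear copies of mitochondrial DNA. Of 11 pseudogenes that matched a mitochondrial gene at 90% identity or more over at least 100 bases, 7 lay on chromosome 1 and the others on chromosomes 2, 3 and 11. The 60 bases at the 5′ end of 2 mitochondrial genes and their chromosome 1 copies are shown because they make plain which reads the table could and could not place by sequence, with a mismatched base in capitals (GENCODE vM21 transcripts, GRCm38, mt-Atp6 chrM:7927-7986 on the plus strand, Gm10925 chr1:24614592-24614651 on the minus strand, mt-Nd3 chrM:9459-9518 on the plus strand, Gm28438 chr1:24613060-24613119 on the minus strand).
mt-Atp6: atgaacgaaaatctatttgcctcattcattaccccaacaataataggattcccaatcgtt
Gm10925: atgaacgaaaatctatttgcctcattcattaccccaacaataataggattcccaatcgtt
mt-Nd3: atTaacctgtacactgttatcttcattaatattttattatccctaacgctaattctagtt
Gm28438: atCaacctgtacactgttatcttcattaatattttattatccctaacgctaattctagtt

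Over all 678 bases of Gm10925 there was no mismatch to mt-Atp6, and over the 345 bases of Gm28438 there was 1 mismatch to mt-Nd3, T3C, counted from 1 at the 5′ end with the mitochondrial base given before the position. Of the counts of each pair, mt-Atp6 held 28.5% to 32.9% over the 23 tumors, mt-Co2 28.8% to 34.0% (with Gm28661), mt-Co3 42.8% to 45.4% (with Gm28437), mt-Nd3 41.3% to 67.2% and mt-Nd4l 70.5% to 87.7% (with Gm10222). The levels of these 5 genes are therefore only part of the reads that carry their sequence. mt-Co1 held 99.9% or more, after rounding, of its pair with Gm29216, and mt-Nd4 at least 99.97% of its pair with Gm28439. mt-Atp8 overlaps mt-Atp6, mt-Nd4l overlaps mt-Nd4, and mt-Nd6 lies on the other strand and overlaps the end of mt-Nd5; whether counting used strand is not given in the sources used here, so reads in these overlaps cannot be told apart.

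For the nuclear genes, upstream sequence was available for 32 of 39 members. Exact matches on either strand were counted in the 250 bases before the start for letters typical of 4 factors or boxes known at promoters of respiratory genes. GCGCATGC, as bound by NRF1, occurred in 3 members (9.38%) and in 2.56% of 27025 promoters. CCGGAAG, as bound by ETS factors, occurred in 3 members (9.38%, against 7.83%), GATGGCGG, as bound by YY1, in 1 member (Ndufa7, 3.13%, against 1.03%) and CCAAT in 10 members (31.3%, against 37.5%). The NRF1 letters and their reverse complement can overlap, as they do upstream of Ndufa11, and no other pair of these motifs shares more than a few letters. Of the members, 16 of 32 held at least 1 of them, against 44.4% of all promoters. The 100 bases before the start are shown for the 2 members called between R and NR lines and for the 3 with the NRF1 letters, with matches in capitals (RefSeq, GRCm38.p6, Ndufv3 chr17:31520015-31520114 plus strand, Ndufv2 chr17:66101560-66101659 minus, Ndufa8 chr2:36049339-36049438 minus, Ndufa6 chr15:82354292-82354391 minus, Ndufa11 chr17:56717662-56717761 plus).
Ndufv3: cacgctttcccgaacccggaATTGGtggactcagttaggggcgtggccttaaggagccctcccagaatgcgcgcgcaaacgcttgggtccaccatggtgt
Ndufv2: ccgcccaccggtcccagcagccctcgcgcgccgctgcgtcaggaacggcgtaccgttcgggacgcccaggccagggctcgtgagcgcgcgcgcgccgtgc
Ndufa8: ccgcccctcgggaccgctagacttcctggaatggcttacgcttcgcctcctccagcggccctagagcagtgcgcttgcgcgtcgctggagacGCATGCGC
Ndufa6: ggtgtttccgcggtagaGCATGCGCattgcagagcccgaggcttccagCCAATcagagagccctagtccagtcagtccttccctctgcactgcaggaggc
Ndufa11: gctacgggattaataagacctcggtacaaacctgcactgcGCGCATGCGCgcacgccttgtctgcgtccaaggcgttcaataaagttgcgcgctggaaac

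Neither Ndufv3 nor Ndufv2 held the NRF1, ETS or YY1 letters in these windows, and Ndufv3 held a CCAAT box on the minus strand.

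Mitochondrial transcripts stood far above the nuclear members per length of transcript. On the scale of DESeq2-normalized counts per kb, the highest levels were those of mt-Co1 (269632), mt-Cytb (253387) and mt-Atp8 (243265), and the lowest mitochondrial levels were those of mt-Nd5 (50208), mt-Nd6 (36713) and mt-Nd3 (19395). These levels leave out reads given to the nuclear copies, so the order of the mitochondrial genes depends on that split. Gm10925 held a mean of 152638 normalized counts beside 68074 for mt-Atp6, and Gm28661 held 91770 beside 42545 for mt-Co2. The highest nuclear levels per kb were those of Ndufa4 (6253) and Ndufa7 (4150). Ndufa4 is now counted as a subunit of complex IV despite its name. The lowest nuclear levels were those of Ndufb4 (365), Ndufa4l2 (54.3) and Ndufa11b (4.5). Ndufa4l2, the paralog of Ndufa4 known to be induced under hypoxia, and Ndufa11b, a processed pseudogene with 43 counts summed over all tumors, were the only members with a mean normalized count under 100. Ndufb4 held 22.4% to 31.7% of the counts it shared with Ndufb4c, a processed pseudogene that is itself a member, so both levels are uncertain. The plot of levels per kb gives the order of 51 members.

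**Figure D1:**
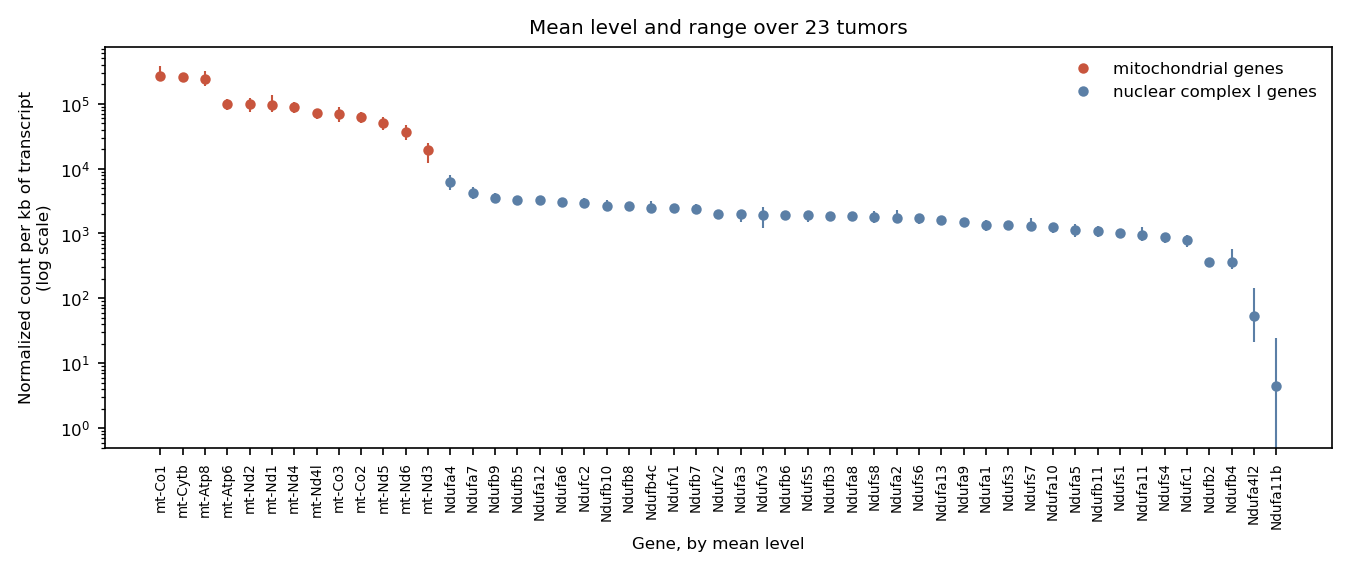
Mean normalized count per kb of transcript (log scale) of 51 of the 52 members over 23 tumors, ordered by level, with lines from the lowest to the highest tumor (the axis starts at 0.5, and the lowest tumors of Ndufa11b are at 0). All 13 mitochondrial genes, from mt-Co1 at 269632 to mt-Nd3 at 19395, sit above every nuclear gene drawn, from Ndufa4 at 6253 downward. Reads given to nuclear copies of mitochondrial genes are not included, and the order of the mitochondrial genes depends on that split.

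Normalized counts, which are not scaled for length, serve below to follow each gene from tumor to tumor. The mitochondrial complex I genes had means of 120915 ± 14673 (mt-Nd4), 101279 ± 13090.4 (mt-Nd2), 91579.9 ± 11529.5 (mt-Nd5), 91543 ± 13811 (mt-Nd1), 21255 ± 2377 (mt-Nd4l), 19054 ± 2639 (mt-Nd6) and 6749 ± 989.8 (mt-Nd3), all SD with n = 23. Of the other mitochondrial genes, mt-Co1 had a mean of 416581 ± 56222, mt-Cytb 289875 ± 22741, mt-Atp6 68074 ± 6727, mt-Co3 54451 ± 6621, mt-Atp8 49626 ± 8133 and mt-Co2 42545 ± 4649.6 (SD, n = 23). Among the nuclear core genes, Ndufv1, the NADH-binding subunit, had 3709 ± 176, and Ndufs1, the largest iron-sulfur subunit, 2680.4 ± 126. Ndufv2, an iron-sulfur subunit beside Ndufv1, had 2631 ± 195, Ndufs8 1766 ± 158, Ndufs3 1422 ± 85.3 and Ndufs7 1138 ± 115.

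Nuclear members varied little between tumors. The coefficient of variation over 23 tumors was 4.69% to 17.1% (median 7.88%) for the 37 nuclear members with a mean of at least 100, and 7.85% to 16.4% (median 12.6%) for the mitochondrial genes. On the log2 scale the median SD was 0.11 for nuclear and 0.18 for mitochondrial members, beside 0.16 for all 12055 genes of that level. Of the nuclear members 32 of 37 fell below the all-gene median, and of the mitochondrial genes 3 of 13. The steadiest members were nuclear core genes, with Ndufs1 between 2392 and 2963 and Ndufv1 between 3413 and 4155 normalized counts. The highest tumor exceeded the lowest 1.22-fold to 2.11-fold for nuclear members and 1.35-fold to 1.99-fold for mitochondrial genes. Many nuclear extremes fell in the libraries with the lowest totals. CC075F1 aPD1 replicate 2, an R tumor, was lowest for Ndufv2, Ndufv3 and Ndufs8 among others. CC080F1 isotype replicate 2, an NR tumor, was highest for Ndufv2 and Ndufs8 among others. The part of depth in these values was not tested.

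The mitochondrial genes rose and fell together from tumor to tumor, and the nuclear members did so only weakly. The median Pearson correlation of log2 values across the 23 tumors was 0.760 over the 78 pairs of mitochondrial genes (0.296 to 0.967). It was 0.237 over the 666 nuclear pairs, 0.125 over the 481 pairs of a nuclear and a mitochondrial gene and -0.002 over pairs of all genes of that level. Genes of a pair share libraries, depth and size factor, and mitochondrial neighbors also share overlaps and copies, so these are descriptions. mt-Nd3 and mt-Co1 were least like the other mitochondrial genes, with median correlations of 0.517 and 0.630.

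**Figure D2:**
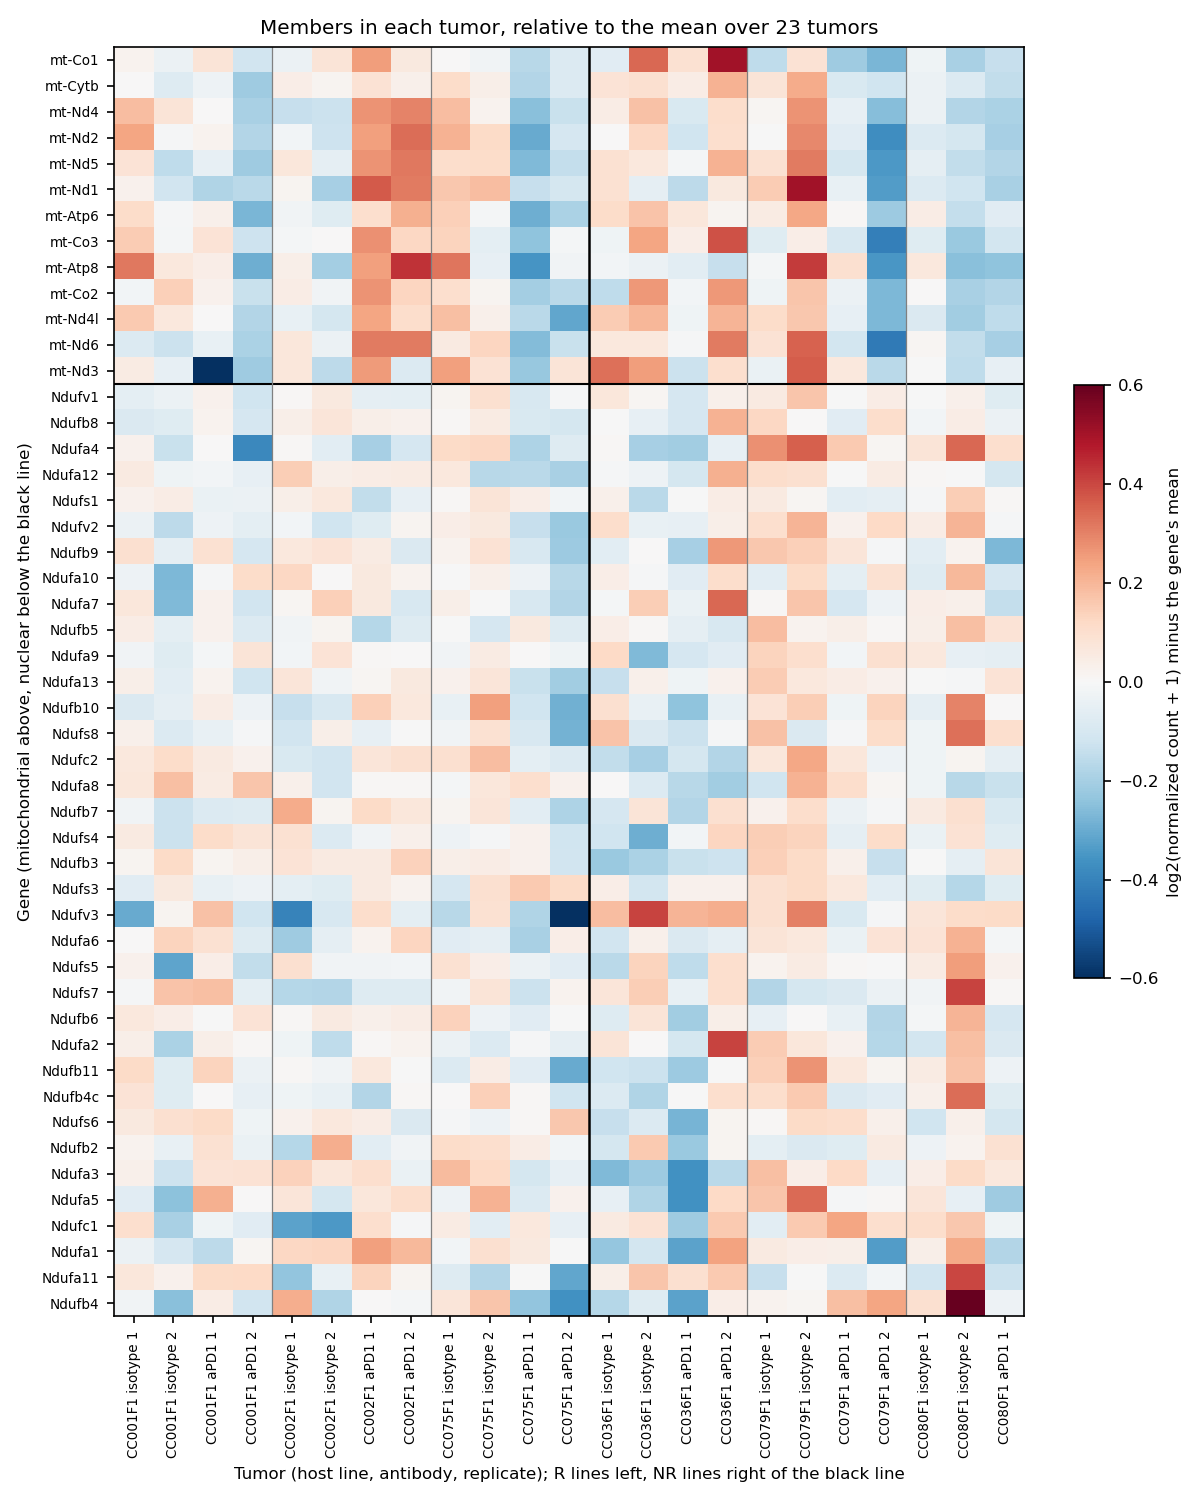
Difference of log2(normalized count + 1) from the gene's mean over 23 tumors, for the 13 mitochondrial genes (above the black line) and 36 of the 37 nuclear members with a mean of at least 100 (below it), one column per tumor with colors capped at 0.6. The mitochondrial block shows columns of one color, such as both CC002F1 aPD1 tumors high and CC079F1 aPD1 replicate 2 low, while the nuclear block is paler and less ordered.

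Between host lines, 3 nuclear members and 1 mitochondrial gene differed (DESeq2 likelihood ratio test with antibody as a term). They were Ndufa4 (adjusted p = 0.0026), Ndufa3 (adjusted p = 0.0046), Ndufb3 (adjusted p = 0.0152) and mt-Co1 (adjusted p = 0.0233), where adjusted p is the Benjamini-Hochberg value over all genes and calls are those under 0.05. Of all genes tested, 16% were called for host line, so 3 of 38 nuclear members and 1 of 13 mitochondrial genes is below the background. In edgeR only Ndufa4 was called (adjusted p = 0.049), and 9 nuclear and 3 mitochondrial members had an unadjusted p under 0.05 in DESeq2, beside 19.6% of all genes.

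Ndufa4 was highest in CC079F1 and CC080F1, with normalized counts of 3449 and 3659.6 with isotype and 3186 and 2878 with aPD1 in CC079F1. In CC080F1 it had 3013 and 3626 with isotype and 3057 with aPD1. Line means were 2637 in CC001F1, 2646 in CC036F1, 2685 in CC002F1, 2854 in CC075F1, 3232 in CC080F1 and 3293 in CC079F1, and the tumors of neighboring lines in this order overlapped. CC075F1 isotype tumors, at 3094 and 3106, lay within the range of the upper lines. In the 17 deep libraries alone the adjusted p for Ndufa4 was 0.182 (DESeq2).

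Ndufa3 and Ndufb3, accessory subunits of the membrane arm, were lowest in CC036F1. Ndufa3 had 704 and 727 with isotype and 656 and 757 with aPD1 in that line, all below the 777 to 965 of the other 19 tumors. Ndufb3 had 1232 and 1259.6 with isotype and 1311 and 1318 with aPD1, beside 1306 to 1589 elsewhere, so it overlapped with CC079F1 aPD1 replicate 2 at 1306. In CC036F1 the summed hypoxia list also ran from 2520 to 3373 CPM, above the 1259 to 2143 CPM of the other lines. The summed fibroblast list ran from 105 to 230 CPM there, below the 234 to 865 CPM of the other lines. Its genes did not move as one. Col1a1 had 1223 to 3032 normalized counts in CC036F1, below the 3606 to 20278 elsewhere. Pdgfrb overlapped, at 1539 to 2801 against 1546 to 4402, and so did Postn, at 468 to 1715 against 1491 to 5062. Brown fat and adipocyte genes summed to 2.79 to 4.49 CPM, below the 9.03 to 65.7 CPM elsewhere. The part of these lists in the values of Ndufa3 and Ndufb3 was not tested. Ndufb3 lost its call without CC036F1 isotype replicate 1 (adjusted p = 0.0919, DESeq2) and without isotype replicate 2 (adjusted p = 0.121, DESeq2), and Ndufa3 without CC036F1 aPD1 replicate 1 (adjusted p = 0.0888, DESeq2).

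mt-Co1, the catalytic subunit of complex IV, was spread most widely within CC036F1, with 393706 and 524190.0 normalized counts with isotype and 440779.8 and 586813 with aPD1. CC079F1 held 372043 and 439554 with isotype and 356341 and 342078 with aPD1, so the 2 lines overlapped. Its call was lost without either CC036F1 isotype replicate 2, CC036F1 aPD1 replicate 2, CC079F1 aPD1 replicate 1 or CC079F1 aPD1 replicate 2 (adjusted p 0.0575 to 0.156, DESeq2). By order of line means, CC002F1 was highest for 7 and CC036F1 for 6 of 13 mitochondrial genes, and CC080F1 was lowest for 9. Of 37 nuclear members, CC079F1 was highest for 15 and CC080F1 for 9, and CC036F1 was lowest for 12. For members other than the 4 called, no difference among the lines passed this test, so their order of line means is a description.

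Between classes, 2 nuclear members were lower in R than in NR tumors and no mitochondrial gene was called. Both called genes belong to the NADH-oxidizing module. Of all genes 14.4% were called for class and 6.78% were called lower in R, and the 2 calls are 5.26% of the 38 nuclear members tested. No nuclear member was called higher. The test treated tumors of one line as independent, although class is a property of the line.

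Ndufv3, a small accessory subunit bound to the flavoprotein core, had normalized counts from 780.5 to 1404 (median 1156) in 12 R tumors and from 1169 to 1649 (median 1347) in 11 NR tumors. The tumors of both classes overlapped, and the line means did not, at 1079 to 1206 in R and 1318 to 1487 in NR lines. The log2 difference was -0.26 ± 0.08 (SE, 95% interval -0.42 to -0.11, adjusted p = 0.0118 in DESeq2 and 0.041 in edgeR). It kept its direction without any 1 tumor (-0.29 to -0.23), and with line as a random effect the call held. The within-line correlation of that fit, shared by all genes, was 0.015, so tumors of a line were still treated as nearly independent. In the deep libraries alone it was -0.23 (adjusted p = 0.0625, DESeq2).

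Ndufv2 ran from 2249 to 2737 (median 2537) in R and from 2539 to 3024 (median 2704) in NR tumors, so the classes overlapped. Line means were 2499 to 2540 in R and 2648 to 2840 in NR lines. The log2 difference was -0.12 ± 0.04 (SE, 95% interval -0.19 to -0.04, adjusted p = 0.0195 in DESeq2 and 0.0532 in edgeR). The call was lost when counts were summed per line and antibody (-0.09, adjusted p = 0.183, DESeq2), with line as a random effect (adjusted p = 0.152, limma) and without the 4 tumors high in muscle genes (adjusted p = 0.104, DESeq2), and in deep libraries alone the difference was -0.05 (adjusted p = 0.418, DESeq2). Line means of all R lines lay below those of all NR lines for 5 of 37 nuclear members (Ndufa2, Ndufc1, Ndufs8, Ndufv2 and Ndufv3) and for 15% of all genes. They lay above for none of the 37, beside 15.2% of all genes, and for no mitochondrial gene in either direction.

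For most members the interval of the class difference was narrow. It treats tumors of a line as independent, so it can be too narrow for a difference between classes of lines. The 95% interval lay within 1.25-fold for 36 of 37 nuclear and 13 of 13 mitochondrial genes, with Ndufv3 as the exception, and for 70.9% of all genes of that level. The median log2 difference was -0.03 over nuclear and 0.02 over mitochondrial members, beside 0.00 over all genes. The lowest adjusted p of a mitochondrial gene was 0.502 (DESeq2), none had an unadjusted p under 0.05, and edgeR called none. In the 12 R tumors 13 mitochondrial genes took 3.64% ± 0.36 of all counts, and in the 11 NR tumors 3.66% ± 0.45 (SD). T and natural killer markers (5 of 5) and macrophage markers (3 of 5) were called higher in R tumors, and hypoxia genes (6 of 9) were called lower. Among NR lines the summed hypoxia list was high in CC036F1, at 2520 to 3373 CPM. In CC079F1 and CC080F1 it ran from 1259 to 2077 CPM, beside 1352 to 2143 CPM in R tumors. The part of these lists in the class differences of Ndufv3 and Ndufv2 was not tested.

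**Figure D3:**
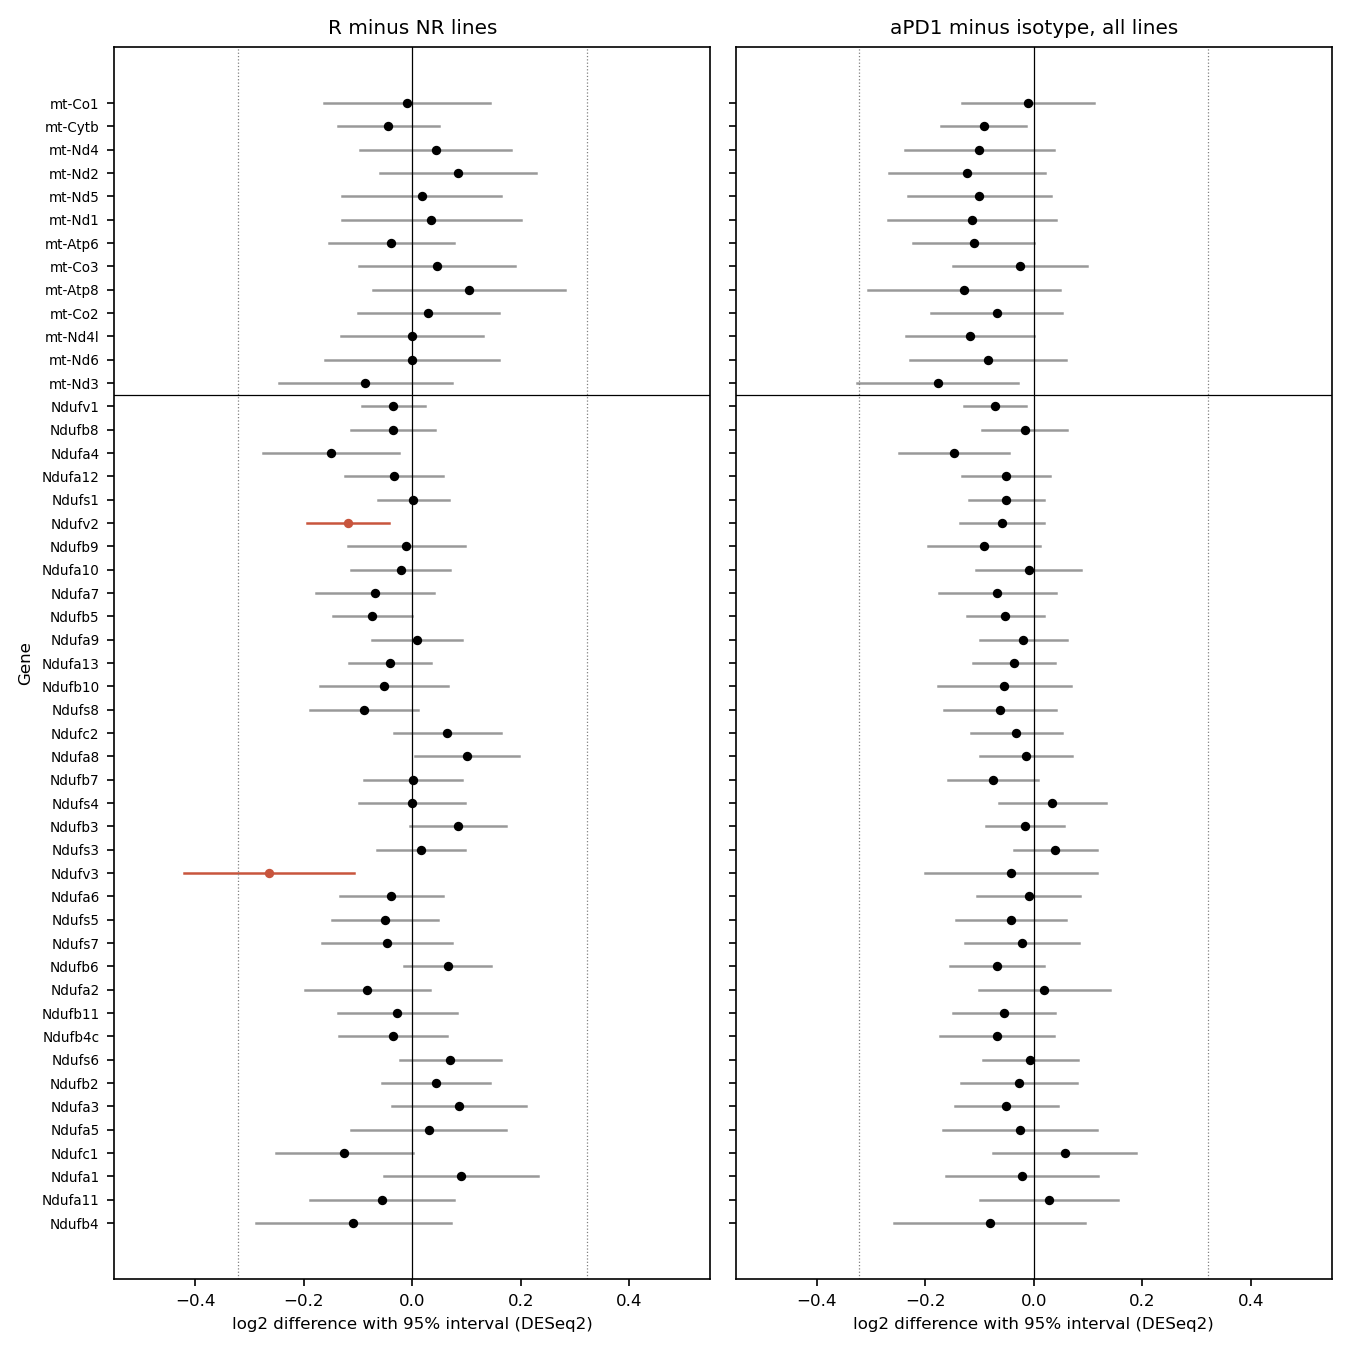
Log2 difference with 95% interval (DESeq2) of the 13 mitochondrial and 36 of the 37 nuclear members, for R minus NR lines (left) and aPD1 minus isotype over all lines (right), with called genes in red and dotted lines at 1.25-fold. Ndufv3 at -0.26 and Ndufv2 at -0.12 are the called genes, and on the right all 13 mitochondrial estimates sit at or left of -0.01 with none called.

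Over all 6 lines, with a term for line in the fit, no member was called after aPD1, and 2.79% of all genes were. Estimates were lower with aPD1 for 13 of 13 mitochondrial and 32 of 37 nuclear members, but the 95% intervals lay within 1.25-fold for 12 of 13 and 37 of 37, beside 78.8% of all genes. The median log2 difference was -0.10 over mitochondrial and -0.04 over nuclear members, beside 0.00 over all genes. In each set 2 genes had an unadjusted p under 0.05 (9.51% of all genes), and edgeR called none. Genes of one set share tumors and, for the mitochondrial genes, precursors, so these counts are not independent measurements.

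Ndufa4 had the lowest adjusted p for antibody, with a log2 difference of -0.15 ± 0.05 (SE, adjusted p = 0.0999, DESeq2), and its mean log2 value was lower with aPD1 in 6 of 6 lines, by 0.03 in CC036F1 up to 0.25 in CC075F1. mt-Nd3 had the lowest estimate, -0.18 ± 0.08 (SE, adjusted p = 0.215, DESeq2), and its value depends on the split of reads with Gm28438, which varied between tumors. In R lines alone no member was called, while 5.46% of all genes were, with medians of -0.06 over mitochondrial and -0.03 over nuclear members. There 1 nuclear and 0 mitochondrial genes had an unadjusted p under 0.05 in DESeq2 (10.2% of all genes), and edgeR called none. In NR lines alone no member was called, and 0.0380% of all genes were, with medians of -0.17 and -0.05. There 0 nuclear and 1 mitochondrial genes had an unadjusted p under 0.05 in DESeq2 (4.77% of all genes), and edgeR called none. The interval of the antibody difference lay within 1.25-fold for 6 of 13 mitochondrial and 35 of 37 nuclear members in NR lines, and the intervals of the other members reached past that fold. mt-Nd1 had -0.24 ± 0.11 in NR lines (SE, adjusted p = 0.972, DESeq2).

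The antibody effect was then compared between R and NR lines. No member was called for a difference of the effect, and 0.0456% of all genes were. The lowest adjusted p was 0.885 among nuclear and 0.887 among mitochondrial members (DESeq2), no member had an unadjusted p under 0.05, and edgeR called none. 

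Line by line, the estimates for mitochondrial transcripts took opposite directions after aPD1, and the directions did not follow class. A test of line by antibody, added after the values by line had been seen, called 6 mitochondrial genes and no nuclear member in DESeq2, beside 2.76% of all genes. All 6 encode complex I subunits of the membrane arm: mt-Nd1 (adjusted p = 0.00039), mt-Nd4 (0.00185), mt-Nd6 (0.00648), mt-Nd5 (0.00691), mt-Nd2 (0.0226) and mt-Nd4l (0.0306). mt-Nd3, also of that arm, was not called. The pattern was not particular to complex I. Log2 differences (aPD1 minus isotype) in CC002F1, CC075F1 and CC079F1 were 0.42, -0.32 and -0.33 for mt-Atp8, not called. They were 0.42, -0.30 and -0.29 for mt-Nd4, and smaller for mt-Co1, at 0.14, -0.12 and -0.21. On simulated counts of this design the DESeq2 test made more calls on unchanged genes than on changed ones, while the share of such calls in edgeR stayed under its threshold, so the DESeq2 calls are to be read with caution. edgeR called none of the 6 (adjusted p 0.098 to 0.339), and 9 mitochondrial and 1 nuclear members had an unadjusted p under 0.05 in DESeq2, beside 8.03% of all genes. With 2 tumors a group and 1 in CC080F1 aPD1, each line's difference rests on 3 or 4 tumors.

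mt-Nd1, which lies at the junction of the membrane arm and the quinone site, shows the pattern. In CC002F1 it had 91762 and 78854 normalized counts with isotype and 117083 and 112547 with aPD1. In CC075F1 it had 101321 and 103094 with isotype and 82257 and 84230.5 with aPD1. In CC079F1 it had 100813 and 128636 with isotype and 87925 and 71922 with aPD1. The aPD1 tumors were thus the higher ones in CC002F1 and the lower ones in CC075F1 and CC079F1, with no overlap in any of these lines. In CC001F1 the values were 92320.1 and 83675 against 80015 and 80971, and in CC080F1 85581 and 83406 against 79231, both lower with aPD1. In CC036F1 the tumors overlapped, at 96471 and 87438 against 81411 and 94515.

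mt-Nd4, a proton-pumping subunit, had 109037 and 109979 with isotype and 144927 and 147767 with aPD1 in CC002F1. In CC075F1 it had 136630.0 and 122047 with isotype and 100788 and 109565 with aPD1. mt-Nd6, the single protein-coding gene of the light strand, had 19817 and 18454 against 23440.5 and 23459 in CC002F1, and 20029.6 and 24154 against 17479.6 and 14074 in CC079F1. Both genes were higher with aPD1 in CC002F1 and lower in the line set beside it, without overlap.

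Over the 13 mitochondrial genes, CC002F1 was higher with aPD1 for 13, with a median log2 difference of 0.25, and its tumors did not overlap for 10 of 13, beside 28.5% of all genes higher without overlap in that line. The difference was lower for 13 of 13 in CC075F1 (median -0.30, 11 without overlap, background 19%), in CC079F1 (-0.29, 11 without overlap, 24.8%) and in CC001F1 (-0.13, 5 without overlap, 16%). It was lower for 11 of 13 in CC080F1 (-0.08, 6 without overlap, 31.4%), and in CC036F1 it was higher for 6 and lower for 7 (-0.07, 3 lower without overlap, 16.2%). Over the 37 nuclear members the median difference was 0.00 in CC001F1 and CC002F1, -0.01 in CC036F1, -0.08 in CC079F1 and -0.11 in CC075F1 and CC080F1, nearer to 0 than the mitochondrial median in every line but CC080F1. Nuclear members were lower without overlap for 18 of 37 in CC075F1, 20 in CC079F1 and 21 in CC080F1, above the backgrounds of 19%, 24.8% and 31.4%, and for 2 of 37 in CC001F1 (16%) and 2 in CC036F1 (16.2%). In CC002F1 they were higher without overlap for 10 of 37, beside 28.5% of all genes. The difference of mitochondrial genes in CC002F1 was not seen in the median of the nuclear members.

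**Figure D4:**
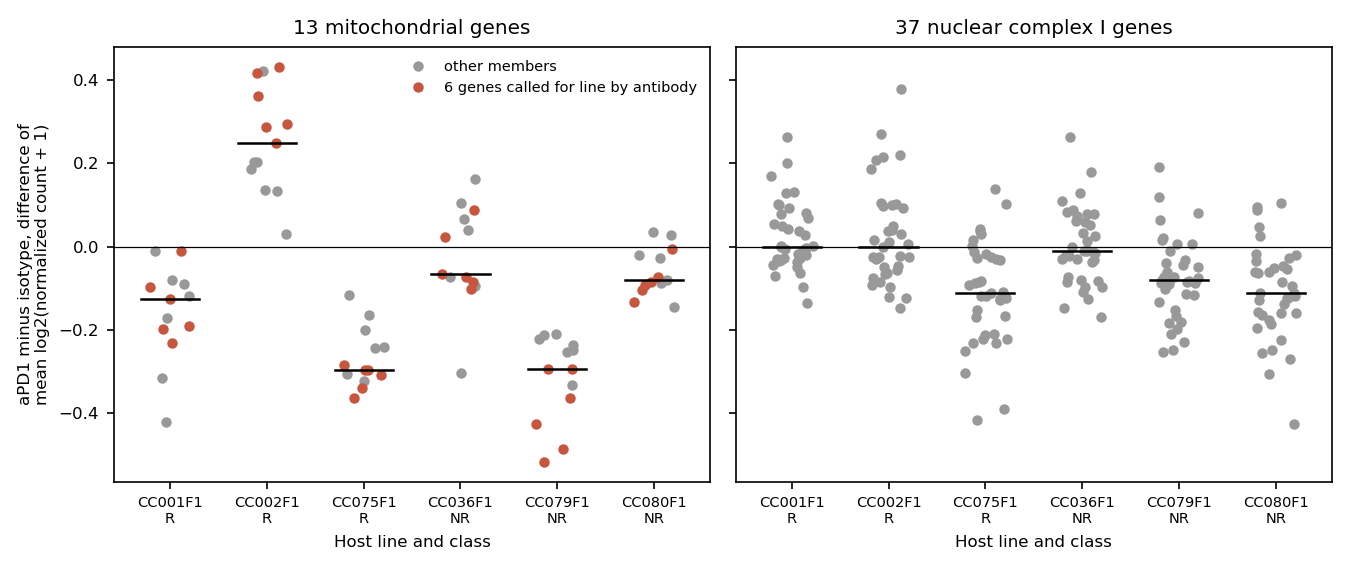
Difference of mean log2(normalized count + 1) between aPD1 and isotype tumors in each host line, a point per gene, for the 13 mitochondrial genes (left, with the 6 genes called for line by antibody in red) and 37 nuclear members (right), with black bars at the median. The mitochondrial medians run from 0.25 in CC002F1 to -0.30 in CC075F1, and the nuclear medians from 0.00 to -0.11.

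The call rested on CC002F1: without that line no mitochondrial gene was called for line by antibody. Without 1 tumor, 1 to 7 genes were called, with the fewest when a CC002F1 tumor was left out (2 and 1 without aPD1 replicate 1 and 2, 3 and 1 without isotype replicate 1 and 2). Without CC079F1 isotype replicate 2 or aPD1 replicate 2 the counts were 2 and 3, and without any other tumor 5 to 7. mt-Nd1 was called whichever of 22 tumors was left out (adjusted p 2.78e-06 to 0.0306, DESeq2). In CC002F1 the summed macrophage list also went from 1299 and 1225 CPM with isotype to 2131 and 2238 CPM with aPD1 (5 of 5 genes higher), and the fibroblast list from 329 and 237 to 865 and 404 CPM (4 of 4 higher). T and natural killer markers went from 24.5 and 16.9 to 35.3 and 51.3 CPM (5 of 5 higher), skeletal muscle genes from 0.868 and 0.962 to 7.66 and 31.5 CPM (5 of 5 higher), and the MC38 and epithelial list from 34.6 and 26.4 to 22.9 and 22.7 CPM (0 of 4 higher). Brown fat and adipocyte genes went from 57.1 and 14.6 to 19.8 and 11.2 CPM (0 of 6 higher), and B cell genes from 25.8 and 3.77 to 3.07 and 1.78 CPM (0 of 4 higher). Every macrophage, fibroblast, T and natural killer cell marker was above 0 in all 23 tumors, Krt18 was at 0 in 7 and Krt8 in 2, and the part of these lists in the mitochondrial values was not tested.

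As a share of all counts, the 13 mitochondrial genes took 3.04% to 4.37% of a tumor (3.65% ± 0.40, SD, n = 23). Within lines the aPD1 mean exceeded the isotype mean by 0.565 percentage points in CC002F1 and 0.0189 in CC036F1, and it fell by 0.739 points in CC079F1, 0.682 in CC075F1, 0.346 in CC001F1 and 0.102 in CC080F1. The 2 aPD1 tumors of CC002F1 (4.27% and 4.03%) exceeded both isotype tumors (3.60% and 3.57%), and those of CC075F1 (3.06% and 3.42%) were below both isotype tumors (4.03% and 3.82%). The 39 nuclear members took 0.157% to 0.192% of counts, with an aPD1 mean below the isotype mean in 6 of 6 lines, by 0.0005 percentage points in CC002F1 up to 0.0193 in CC075F1. The share counts only the reads the table gave to these genes, and with the nuclear copies added the mean mitochondrial share was 4.51%.

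**Figure D5:**
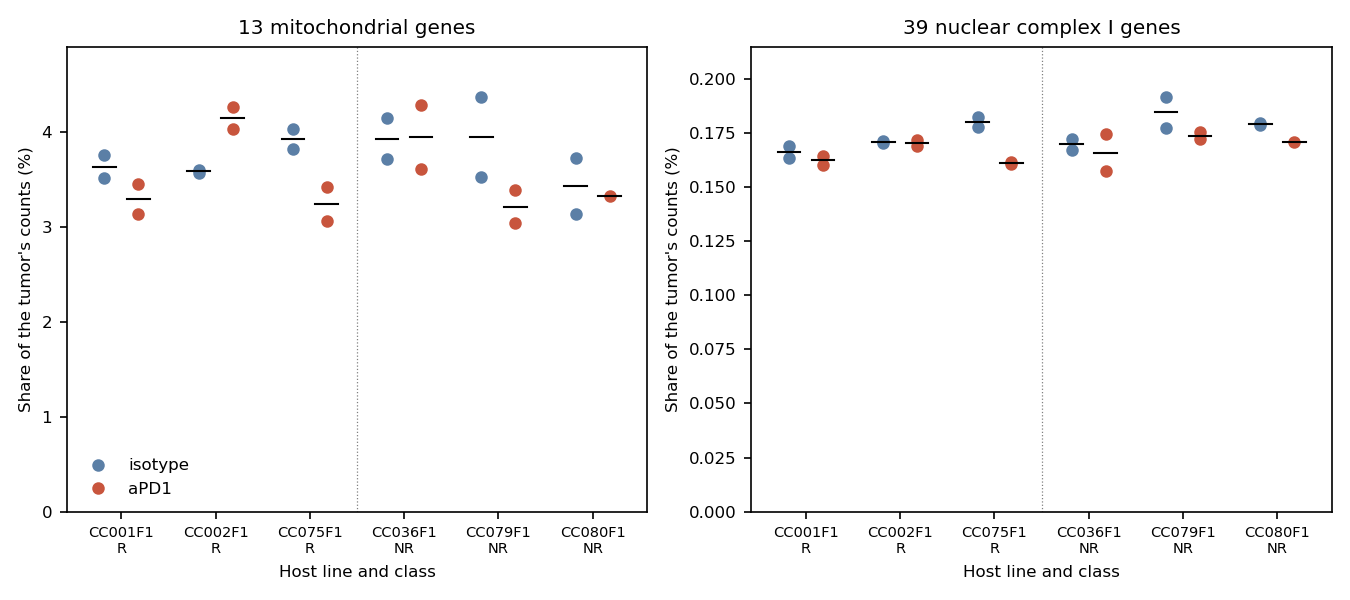
Share of a tumor's counts (percent) in the 13 mitochondrial genes (left) and in the 39 nuclear members (right), a point per tumor by host line and antibody, with black bars at the group mean. The mitochondrial share is higher with aPD1 in CC002F1 (4.27% and 4.03% against 3.60% and 3.57%) and lower in CC075F1 and CC079F1, and the nuclear share stays between 0.157% and 0.192%.

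Other genes of the respiratory chain gave few calls between classes. Of 20 complex I assembly and related genes tested, 3 were lower in R tumors: Ndufaf7, a methyltransferase that serves complex I assembly (-0.17 ± 0.05, adjusted p = 0.0178), Nubpl, which delivers iron-sulfur clusters to complex I (-0.20 ± 0.07, adjusted p = 0.0294), and Lyrm2 (-0.26 ± 0.08, adjusted p = 0.0179; log2 difference ± SE, DESeq2). Ndufaf7 had means of 746 ± 74.4 in 12 R and 844 ± 45.7 in 11 NR tumors (SD). Of 23 complex IV genes, Cox7a2l, which links complexes III and IV in supercomplexes, was lower (-0.13 ± 0.03 SE, adjusted p = 0.0048, DESeq2), with 4946 ± 235 in R and 5407 ± 330 in NR tumors (SD). None was called of 8 genes of complex II, 15 of complex III, 19 of complex V, 25 for mitochondrial DNA expression and upkeep, and 11 regulators, beside 14.4% of all genes.

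Between lines, the lists gave 1 of 20 assembly genes (Nubpl), 2 of 15 in complex III (Uqcrfs1 and Cyc1), 1 of 23 in complex IV (Cox7a2l), 1 of 19 in complex V (Atp5g2), 2 of 11 regulators (Epas1 and Myc) and 9 of 9 hypoxia genes, beside 16% of all genes. None was called of 8 genes of complex II or of 25 for mitochondrial DNA expression and upkeep. Of the cell type lists, 5 of 5 T and natural killer, 4 of 4 fibroblast and 4 of 5 macrophage markers were called for host line. Skeletal muscle genes gave 3 of 5, brown fat and adipocyte genes 2 of 5 and muscle forms of respiratory subunits 1 of 3. B cell genes and the MC38 and epithelial list gave 0 of 4 each. Epas1, which encodes the hypoxia-inducible factor HIF-2 alpha, had a mean of 375 ± 81.5 normalized counts in CC036F1 (SD, n = 4), beside line means of 653 to 852 elsewhere. Atp5g2, a gene for the c subunit of ATP synthase, was also lowest in CC036F1, at 388 ± 82.2 (SD, n = 4). For antibody over all lines, Tmem186, a complex I assembly factor, was lower with aPD1 (-0.18 ± 0.05 SE, adjusted p = 0.0387, DESeq2) as 1 of 20 assembly genes, beside 2.79% of all genes. In R lines Ssbp1, which binds single-stranded mitochondrial DNA, was lower (-0.16 ± 0.05 SE, adjusted p = 0.0458, DESeq2), as 1 of 25 genes for mitochondrial DNA expression and upkeep, beside 5.46% of all genes.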

How the data were processed

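Poly(A) libraries (KAPA mRNA HyperPrep) of 23 frozen tumors were read by the authors as paired ends. The authors mapped the reads with Bowtie 1.2.3 to founder transcriptomes built on GRCm38 and estimated reads per gene with gbrs. The deposited values were taken to be these expected counts. They are not scaled for depth and split reads shared between genes, so that near-identical genes are uncertain beyond the model error. Of the mitochondrial members' values 49.5% were not whole, and all values were rounded before testing. Names came from GENCODE vM21 on the same build, which matched 26681 of 26869 gene identifiers, and the 188 others held 0.0993% of counts.

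The labels gave each tumor's host line and antibody, which set the groups. DESeq2 1.42.0 (R 4.3.3) was the main tool, on the 26342 genes with at least 5 counts in sum, with a call at a Benjamini-Hochberg adjusted p under 0.05. edgeR 4.0.16 and limma 3.58.1 were alternatives. Host line and line by antibody used likelihood ratio tests, and the other comparisons used Wald tests with 95% intervals. All fits covered the whole table. DESeq2 and edgeR were tested on simulated counts for host line, class, antibody over all lines, antibody in R lines and line by antibody. In each of these the share of DESeq2 calls on unchanged genes was above the threshold of 0.05 and above that of edgeR, most of all for line by antibody. That of edgeR was above the threshold for class. The other fits were not simulated. Normalized counts were counts divided by DESeq2 size factors. Replicates are separate tumors per the labels, and replicate pairs differed by far more than sampling noise (chi-square per degree of freedom 9.16 to 123). Levels per kb used the median length of protein-coding transcripts. Nuclear copies were found with blastn 2.17.0+.

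The members and lists were chosen with earlier results of these data known. Named with values were the 13 mitochondrial genes, nuclear core subunits, Ndufa4 and Ndufa4l2, up to 6 called members per comparison and direction, the 3 highest and 3 lowest members per kb, and up to 3 called genes per list. The values of 1 nuclear member are not reported here, and it is counted in the totals. The line by antibody test was chosen after values by line had been seen. Alternatives were other tools and scalings, deep libraries only, a depth term, sums per line, line as a random effect, leaving out muscle-rich tumors or each tumor in turn, a replicate block and copies added to their genes.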

Additional observations from a re-analysis of the deposited data

Results flagged for a closer look

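In the line by antibody test (DESeq2 likelihood ratio test, added after the values by line had been seen), the antibody effect differed between host lines for 6 mitochondrial complex I genes, with adjusted p of 0.00039 for mt-Nd1, 0.00185 for mt-Nd4, 0.00648 for mt-Nd6, 0.00691 for mt-Nd5, 0.0226 for mt-Nd2 and 0.0306 for mt-Nd4l. In edgeR none of the 6 was called, and on simulated counts of this design most DESeq2 calls fell on unchanged genes.

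A gap test within the 4 groups of class and antibody was applied to 26 measures, 104 group tests in all, and singled out 3 values. Chance alone gives about 1 in 20 groups. Ndufs8 stood at 1445 normalized counts in CC075F1 aPD1 replicate 2, below the other R aPD1 tumors (1647 to 1758). This library had the lowest total of all, and Ndufv2 and Ndufv3 among other nuclear members were also at their lowest in it. Ndufa4l2 stood at 136 in CC080F1 isotype replicate 2, where the other NR isotype tumors ran from 21.8 to 52.2. That tumor had the lowest summed hypoxia list of all tumors, at 1259 CPM. Its skeletal muscle genes summed to 152 CPM, and its library was among those under 30000000 counts. The part of these in the Ndufa4l2 value was not tested. The nuclear members took 0.157% of counts in CC036F1 aPD1 replicate 1, and 0.171% to 0.175% in the other NR aPD1 tumors.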

How the results depend on the processing

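For host line, the nuclear count of 3 became 1 in edgeR, and the mitochondrial count of 1 became 0 in edgeR, 0 with depth as a term and 0 without the tumors high in muscle genes. For class, the nuclear count of 2 became 0 in deep libraries only, and 1 in edgeR, with a random effect of line in limma, in sums per line and antibody, and without the tumors high in muscle genes. For line by antibody, the mitochondrial count of 6 became 0 in edgeR and 0 without CC002F1. The mean mitochondrial share of 3.65% became 4.51% with the nuclear copies added, by construction. The cause of the other changes was not tested. Under the settings other than leaving out a tumor, the remaining 121 counts and shares kept their side of the threshold or stayed within 1.5 times the reported count, and none reversed.

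Leaving out each tumor in turn gave 2 to 6 nuclear and 0 to 2 mitochondrial calls for host line, 2 to 3 nuclear calls for class, 0 to 2 nuclear calls for antibody over all lines, 0 to 1 in R lines and 1 to 7 mitochondrial calls for line by antibody, and 0 in the other comparisons of members. The 2 nuclear calls for antibody over all lines came without CC001F1 aPD1 replicate 1 or CC036F1 aPD1 replicate 2, and 1 came without CC036F1 isotype replicate 2 or CC080F1 isotype replicate 1. For host line, 2 nuclear calls were left without CC036F1 isotype replicate 2 or aPD1 replicate 1, and 5 to 6 came without CC036F1 aPD1 replicate 2, CC002F1 isotype replicate 2 or CC075F1 isotype replicate 2. For mt-Co1 and line by antibody the deciding tumors are named beside the results. CC080F1 with aPD1 holds 1 tumor, which was assumed to vary like the other groups and could not be left out for line by antibody.

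The replicate numbers were not treated as pairs, and these values do not settle whether they pair tumors. Correlations of same-numbered deviations between antibody groups of a line were -0.202 to 0.368. Over all pairs of groups they were -0.404 to 0.368, with CC001F1 at the upper end. With the replicate block the counts of calls did not change, at 3 nuclear and 1 mitochondrial for host line, 2 and 0 for class, 0 for the antibody comparisons and 6 mitochondrial for line by antibody. Library depth and 2 tumors per group limit what can be seen for single lines.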

Other observations

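Of the 6 respiratory genes called between classes among members and respiratory lists (Cox7a2l, Lyrm2, Ndufaf7, Ndufv2, Ndufv3 and Nubpl), all lower in R tumors, 4 lie on chromosome 17 (Cox7a2l, Ndufaf7, Ndufv2 and Ndufv3). Of the 172 such genes tested, 11 lie on that chromosome, as do 4.69% of all genes tested and 3.68% of all genes called lower in R tumors. Chromosome position was looked at after the calls had been seen, and no test was made of it.

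Ucp1, the uncoupling protein of brown fat, was called for antibody in NR lines (adjusted p = 0.00749, DESeq2), but it rested on CC079F1 aPD1 replicate 1, with 55.9 normalized counts where 16 of the 23 tumors were at 0. The highest value, 147.6 normalized counts, was in CC002F1 isotype replicate 1. The summed brown fat and adipocyte list was also highest in these tumors, at 65.7 and 57.1 CPM. mt-Nd3 was lowest, at 4305 normalized counts, in CC001F1 aPD1 replicate 1, where the other 12 mitochondrial genes were not at their minimum. Over the tumors mt-Nd3 held 41.3% to 67.2% of the counts of its pair with Gm28438, and the part of this split in the low value was not tested.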
